A study of Mus musculus with 6 samples.

Results

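The perilipins (*Plin1* to *Plin5*), the CIDE proteins (*Cidea*, *Cideb* and *Cidec*) and the FIT proteins (*Fitm1* and *Fitm2*) coat lipid droplets or help to form and enlarge them, and their 10 genes are described here out of the 56884 genes listed for each library. They are taken by gene name, without a threshold on a measured value. RNA was sequenced from a stromal vascular fraction (SVF) cell line of mouse subcutaneous white adipose tissue (scWAT), a line of adipocyte precursors, in which mouse PPARγ2 with an HA tag was overexpressed from a pMXs-Puro retroviral vector. In one group of 3 biological replicates lysine K382 of PPARγ2 was replaced by glutamine (K382Q, which resembles acetylated lysine), and in the other group of 3 by arginine (K382R, which cannot be acetylated). Both lines had been selected with puromycin, and both were harvested at day 2 of beige adipocyte differentiation in a medium that held the PPARγ agonist rosiglitazone (0.5 μM) beside isobutylmethylxanthine (500 μM), indomethacin (125 μM), dexamethasone (2 μg/mL), insulin (5 μg/mL) and T3 (1 nM). Cells with unmodified PPARγ2 or with an empty vector were not analysed here, so every difference below is one between the mutants. Nothing in the labels says whether the replicates of a mutant came from separate transductions, and the p-values then measure only the spread between these cultures.

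Lipid droplets are stores of triacylglycerol and cholesteryl ester under a phospholipid monolayer, and the proteins on that monolayer set how the store is filled and emptied. Perilipins bind the droplet surface and control the access of lipases. Among them PLIN1 is the perilipin of mature adipocytes and holds the lipase co-activator ABHD5 until the cell is stimulated, PLIN2 and PLIN3 coat droplets in most tissues, PLIN4 is abundant in white fat, and PLIN5 belongs to tissues that oxidise fatty acids, such as heart, muscle and brown fat, where it brings droplets close to mitochondria. CIDE proteins sit where droplets touch and move lipid from the smaller into the larger droplet: CIDEA is a marker of brown and beige fat, CIDEB acts in the liver and CIDEC (also called FSP27) is the CIDE protein of white fat. FITM1 of muscle and FITM2 of fat are proteins of the endoplasmic reticulum with a role in the budding of droplets. PPARγ, the master regulator of adipocytes, binds DNA together with RXR at direct repeats of the hexamer AGGTCA, and several of these genes are known PPAR targets.

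The genes lie on 7 chromosomes, and *Plin4* (chr17:56407591-56416803, GRCm39) and *Plin5* (chr17:56418601-56424596) are neighbours on the minus strand, 1798 bases apart. *Plin3* is on the same chromosome and strand (chr17:56584476-56599873). By the coordinates in the tables, *Plin1* is at chr7:79369966-79382651, *Plin2* at chr4:86566623-86588297, *Cidec* at chr6:113401595-113412721, *Cideb* at chr14:55991507-55995915 and *Fitm2* at chr2:163308299-163314549, all on the minus strand, and *Fitm1* at chr14:55813074-55814411 on the plus strand. The stretches before the annotated starts of *Plin5* and *Plin4* are shown because they are neighbours of which *Plin5* passed the test below and *Plin4* did not, and that of *Plin2* because it was the most abundant member. Those of the other members, *Cidea* and *Cidec* among them, which passed the test too, are not shown. They were read from the GRCm39 genome on the minus strand, up to 250 bases before the canonical transcript start of GENCODE mouse release 39, as chr17:56424611-56424793, chr17:56416932-56417181 and chr4:86588460-86588709. The 67 bases next to the start of *Plin5* are left out because they are exonic in other transcripts of that gene. All distances are counted from these canonical starts, which differ from the gene edges of the coordinates above. Counted upstream from the start, the edge lies at -162 bases for *Plin2*, -128 for *Plin4* and 53 for *Plin5*, where a minus means downstream. Capitals mark every match, on either strand, to AGGTCA, AGGNCANAGGNCA, TTGCNNAA (a core of C/EBP sites), ACGTG (a core of hypoxia response elements), TATAAA or CCAAT.
Plin5: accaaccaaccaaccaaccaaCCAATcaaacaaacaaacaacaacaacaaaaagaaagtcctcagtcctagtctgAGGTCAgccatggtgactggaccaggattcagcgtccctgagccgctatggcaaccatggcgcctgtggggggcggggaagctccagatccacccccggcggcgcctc
Plin4: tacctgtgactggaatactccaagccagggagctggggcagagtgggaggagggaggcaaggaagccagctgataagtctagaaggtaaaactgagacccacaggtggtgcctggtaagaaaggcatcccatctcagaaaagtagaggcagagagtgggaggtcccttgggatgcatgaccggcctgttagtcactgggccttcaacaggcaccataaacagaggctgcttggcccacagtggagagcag
Plin2: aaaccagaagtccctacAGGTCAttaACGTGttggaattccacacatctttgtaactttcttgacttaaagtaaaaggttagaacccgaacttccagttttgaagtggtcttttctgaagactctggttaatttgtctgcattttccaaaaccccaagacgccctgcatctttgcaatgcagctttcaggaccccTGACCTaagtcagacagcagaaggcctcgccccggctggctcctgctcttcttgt

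AGGTCA was present in the 250-base windows of *Plin2* and *Plin5* (2 of the 10 genes), beside 13.1% of 21757 promoters. *Plin2* had it 233 to 228 bases before the start and, on the opposite strand, 55 to 50 bases before it, where it reads TGACCT. In *Plin5* it lay 175 to 170 bases before the start. The window of *Plin2* also held ACGTG, which 17.0% of promoters hold. CCAAT was in 3 of the 10 windows, beside 36.5% of promoters, and that of *Plin5* held it 229 to 225 bases before the start and, on the opposite strand, 67 to 63 bases before it, in the bases not printed. TATAAA was found in *Cideb*, beside 11.9% of promoters. None of the 10 windows held TTGCNNAA (9.34% of promoters), AGGTCANAGGTCA (0.0368%) or AGGNCANAGGNCA (0.349%), the last of which is the direct repeat with 1 free base in each hexamer and 1 base between them.

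Within 5000 bases before the start, AGGNCANAGGNCA was found for 2 of the 10 genes, *Plin1* and *Plin4*, beside 8.9% of all 21757 genes. The match before *Plin1* began 1341 bases from the start (chr7:79384047-79384059, minus strand), and that before *Plin4* began 1382 bases from the start (chr17:56418301-56418313, minus strand), in the interval between *Plin4* and *Plin5*. Both are shown because these are the members whose upstream region held the letters. Neither gene was called different between the mutants in the main fit below, while median-ratio scaling called both higher in K382Q cells, by a log2 of 0.11 and 0.12.
Plin1 upstream repeat: AGGTCAAAGGACA
Plin4 upstream repeat: AGGGCAAAGGCCA

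Libraries held 5.95 to 7.50 Gb of aligned bases in K382Q cells and 6.53 to 8.15 Gb in K382R cells, and replicates of each mutant lay together on the first principal component (61.3% of the variance). Levels are given as TPM, a relative abundance of transcripts that divides by transcript length and allows genes to be compared within a library, and which gives shares of all transcripts, not amounts per cell. Markers of adipocytes were abundant in both mutants. Of 11 listed, 10 were tested, with 5 higher in K382Q cells, 4 lower and 1 not called, and *Lep* was at 0. *Pparg*, one of the 4 lower, includes reads of the transgene, and 4 of the list are also PPAR targets below. The summed TPM was 53120 to 56750 in K382Q and 44080 to 45230 in K382R cells. Most of that sum was *Fabp4*, at 46390 to 50290 and 37390 to 38540 TPM, so it does not give the level of the other markers. Brown or beige markers summed to 380.2 to 382.2 TPM in K382Q and 166.2 to 171.5 TPM in K382R cells. Most of this was *Elovl3* (272.3 to 283.1 against 129.4 to 130.7 TPM) and *Cox7a1* (67.91 to 80.92 against 10.91 to 19.82 TPM). Of 9 listed, 5 were tested, 4 higher in K382Q and 1 not called. *Ucp1*, one of the 4, met the minimum only through the K382Q libraries, and 3 were higher with a minimum TPM of 1. *Zic1* was at 0, and *Dio2* and *Prdm16* were below 0.5 TPM in every library. All 5 of the 9 markers of stromal precursors that could be tested were lower in K382Q cells. The sums over the 9 were 508.3 to 551.9 against 865.8 to 903.1 TPM, with *Dpp4* at 0. Most of these sums was *Ly6a*, at 449.8 to 497.6 against 751.5 to 786.2 TPM. The counts of called markers stand beside 11.1% of all tested genes that were higher in K382Q cells and 36.9% that were lower. They are descriptive, because the lists were chosen with earlier results of these data known. The study had already named *Ucp1*, *Ppargc1a* and *Elovl3* among the genes upregulated in K382Q cells. In bulk RNA, fewer cells of a type and less RNA per cell cannot be told apart. The part of these markers in the differences below was not tested. Sums of the other marker lists were small, at 11.12 to 12.6 against 12.76 to 15.7 TPM for leukocytes, 1.575 to 2.227 against 1.694 to 1.823 TPM for endothelium, 2.206 to 2.966 against 5.105 to 5.936 TPM for striated muscle and 1.276 to 1.73 against 0.2557 to 0.9853 TPM for hepatocytes. The defining genes *Adgre1* and *Cd3e*, *Emcn*, *Myod1*, *Myog* and *Myh4*, and *Ttr* and *Serpina1a* were at 0 in all 6 libraries. Others on these lists were present: *Cd14* (6.951 to 8.069 against 9.098 to 10.52 TPM) and *Acta1* (2.206 to 2.966 against 4.594 to 5.761 TPM) were lower in K382Q cells, *Cd68* (3.171 to 5.105 TPM) and *Pecam1* (1.497 to 2.076 TPM) overlapped between the mutants, and *Alb*, too low to be tested, was at 0.483 to 0.788 TPM in K382Q and 0 to 0.0413 TPM in K382R cells.

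*Plin5*, a perilipin gene of oxidative tissues, and *Cidea*, a marker of brown and beige fat, were the tested members that stood more than 2-fold apart. Both were higher in K382Q cells. *Cidec* and *Plin2*, the most abundant CIDE and perilipin genes here, were also higher, by a smaller margin. *Plin1*, *Plin3*, *Plin4* and *Fitm2* did not pass the test, and *Cideb* and *Fitm1* were too low to be tested. Of the 10 genes, 8 reached 0.5 TPM in 3 or more libraries and were tested, 4 of those were higher in K382Q cells and 0 were lower at an adjusted p under 0.05 (limma on log2(TPM + 0.5), Benjamini-Hochberg adjustment over 15426 genes). At an unadjusted p under 0.05, 1 gene was lower, *Fitm2*. Across all genes tested, 48.1% were called, 11.1% higher and 36.9% lower, a split that became 19.9% and 20.4% with median-ratio scaling. The 50.0% called among the members is close to the share in all genes. *Cidea* met the minimum for the test only through the K382Q libraries, and without it 3 of 7 were called higher. A fold change over 2 with the same p was reached by 1 of these 7 (*Plin5*), beside 1.27% of all genes in that direction and 2.61% in the other. The libraries of the mutants did not overlap for 5 of the 8 (4 higher and 1 lower in K382Q cells), beside 57.0% of all genes (14.1% higher and 42.8% lower).

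**Figure D1:**
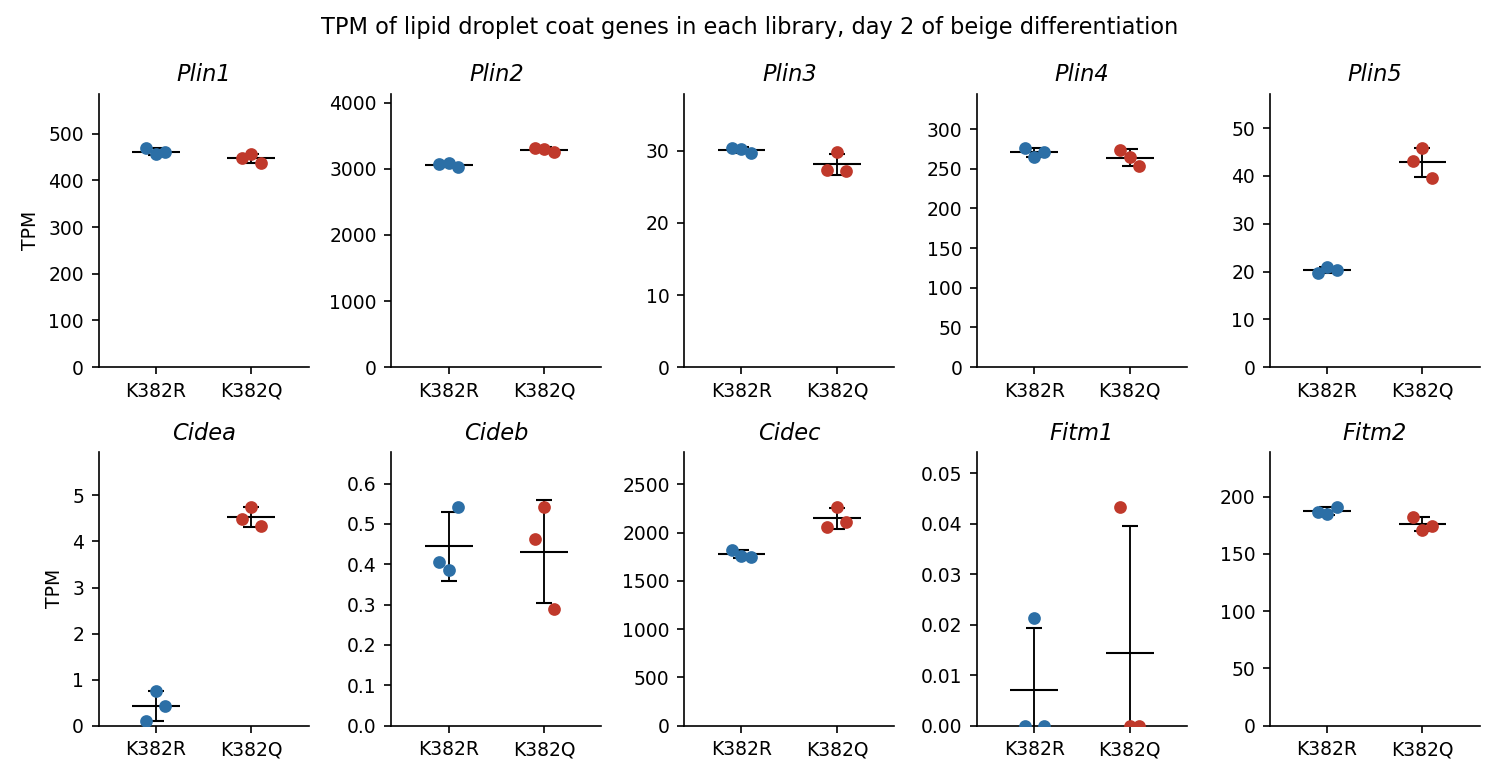
TPM (linear axis from 0, scaled for each gene) of the 10 lipid droplet coat genes in each library, with K382R in blue and K382Q in red, 3 libraries each. Lines are means and bars are SDs (drawn down to 0 at most). *Plin5* lies at 39.58 to 45.8 TPM in K382Q and 19.73 to 20.92 TPM in K382R libraries, and *Cidea* at 4.334 to 4.754 and 0.1083 to 0.7514 TPM.

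*Plin2* was the highest of the perilipins and ranked 15 to 20 among the 15426 genes in the 6 libraries. Its TPM was 3309, 3304 and 3250 in K382Q and 3074, 3084 and 3025 in K382R cells. The groups did not overlap, and the lowest K382Q library was above the highest K382R library. The means of 3288 ± 33.1 and 3061 ± 31.3 TPM (SD, n = 3) differ by 1.07 times, and the log2 fold change was 0.10 (SE 0.028, 95% confidence interval 0.04 to 0.17, limma adjusted p = 0.0172). This small call depended on the processing: it became -0.14 (adjusted p = 0.0114) after quantile normalization, 0.10 (adjusted p = 0.135) with no filter on low genes and 0.10 (adjusted p = 0.0657) with no intensity trend. It was also lost when K382R replicate 1, 2 or 3 was left out (adjusted p = 0.0628, 0.0577 and 0.0801).

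*Plin1*, the perilipin of mature adipocytes, was measured at 447.3, 456.2 and 437.1 TPM in K382Q and 468.7, 455.6 and 460.8 TPM in K382R cells. The second K382Q library lay above the second K382R library by a small margin, so the groups overlapped. The means were 446.9 ± 9.55 and 461.7 ± 6.60 TPM, with a log2 difference of -0.05 (95% confidence interval -0.11 to 0.02, limma adjusted p = 0.21). *Plin4* gave 274.1, 264.6 and 253.5 TPM in K382Q and 275.9, 264.5 and 271.5 TPM in K382R cells, again with overlap. Its log2 difference was -0.04 (95% confidence interval -0.12 to 0.05, limma adjusted p = 0.451). For both genes the intervals exclude a change of the size seen in *Plin5*, but median-ratio scaling turned both differences upwards, to 0.11 for *Plin1* (adjusted p = 0.0252) and 0.12 for *Plin4* (adjusted p = 0.0271). *Plin4* also overlaps *Hdgfl2* on the opposite strand (84.1 to 110.3 TPM), and whether reads were assigned by strand is not given in the sources used here.

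*Plin3*, the perilipin that moves between cytosol and nascent droplets, was far less abundant than *Plin1*, *Plin2* and *Plin4*. It had 27.37, 29.82 and 27.27 TPM in K382Q and 30.36, 30.27 and 29.66 TPM in K382R cells. One K382Q library, the second, lay within the K382R range and the other two lay below it. The log2 difference was -0.10 (SE 0.049, 95% confidence interval -0.21 to 0.02, limma adjusted p = 0.146). Without K382Q replicate 2 it was -0.14 (adjusted p = 0.043).

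*Plin5* carried the clear difference within the perilipins. Its TPM was 43.12, 45.8 and 39.58 in K382Q against 19.73, 20.92 and 20.29 in K382R cells. Each K382Q library was above every K382R library by a wide margin. The means of 42.8 ± 3.12 and 20.3 ± 0.592 TPM (SD, n = 3) gave a ratio of 2.11, and the log2 fold change was 1.06 (SE 0.060, 95% confidence interval 0.92 to 1.20, limma adjusted p = 8e-06). It ranked 179 from the top by log2 fold change among the 15426 genes. The call held under all 15 alternatives, with values of 1.01 to 1.22. Reads for *Plin5* were plentiful, with a deposited coverage of 92.0 to 134.1 per base in K382Q and 48.6 to 63.4 per base in K382R libraries. Its neighbour *Plin4* differed by -0.04 in the same libraries, and the ratio of the pair is given below.

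The replicates of *Plin2* varied least, with a coefficient of variation of 1.01% in K382Q and 1.02% in K382R cells. The coefficients of *Plin1*, *Plin3*, *Plin4* and *Plin5* were 2.14%, 5.14%, 3.9% and 7.28% in K382Q cells. They were 1.43%, 1.27%, 2.11% and 2.92% in K382R cells, so that each of these genes varied less there.

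*Cidec*, the CIDE gene of white fat, was the second most abundant member, at ranks 40 to 49 among all genes. Its TPM was 2062, 2267 and 2109 in K382Q and 1823, 1756 and 1744 in K382R cells. No library of one mutant entered the range of the other. The means were 2146 ± 107 and 1774 ± 42.3 TPM, a ratio of 1.21, with a log2 fold change of 0.27 (SE 0.041, 95% confidence interval 0.18 to 0.37, limma adjusted p = 0.00108). Among the 15 alternatives 14 kept the call, and quantile normalization gave 0.07 (adjusted p = 0.221).

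*Cidea* (chr18:67476674-67500855, plus strand), the CIDE gene used as a marker of brown and beige fat, was low in both mutants and close to 0 in K382R cells. It had 4.497, 4.754 and 4.334 TPM in K382Q and 0.1083, 0.7514 and 0.4341 TPM in K382R cells. The K382Q libraries were close to each other, while those of K382R differed by several fold among themselves (coefficient of variation 74.6% against 4.68%). The means were 4.53 ± 0.212 and 0.431 ± 0.322 TPM, a ratio of 10.5 or 3.39 on the log2 scale. Without K382R replicate 2 the ratio was 16.7 and without K382R replicate 1 it was 7.64. Only 1 K382R library reached 0.5 TPM, so the gene met the minimum for the test through the group in which it was high, and the test is given here from the fit with no filter on low values. With the pseudocount of 0.5 TPM the log2 fold change was 2.49 (SE 0.283, 95% confidence interval 1.79 to 3.20, limma adjusted p = 0.00212). The value ranged from 1.84 to 3.34 over the 15 alternatives. The K382R values rest on few reads, as the coverage of 0.327, 2.39 and 1.09 per base corresponds to about 2.8, 20 and 9.2 reads of 150 bases over the canonical transcript of 1266 bases, against about 93, 120 and 89 in K382Q cells.

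*Cideb*, the CIDE gene of liver, stayed at 0.4635, 0.5412 and 0.2898 TPM in K382Q and 0.405, 0.386 and 0.5425 TPM in K382R cells. The groups overlapped, and the gene was below the minimum for the test. It shares its locus with *Nop9* on the opposite strand (21.3 to 29.3 TPM), and how reads were divided between them is not given in the sources used here. In K382R cells *Cidea* and *Cideb* had overlapping levels, whereas in K382Q cells every *Cidea* value was above every *Cideb* value.

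*Fitm2*, the FIT gene of fat, was well expressed. It gave 182.7, 170.6 and 174.8 TPM in K382Q and 187.0, 184.6 and 191.3 TPM in K382R cells. All K382Q libraries were below all K382R libraries, as for 42.8% of all genes tested. The difference did not pass the test over all genes (log2 fold change -0.09, SE 0.034, 95% confidence interval -0.17 to -0.01, limma adjusted p = 0.0579). It was -0.12 (adjusted p = 0.0183) without K382Q replicate 1, and 0.06 (adjusted p = 0.158) with median-ratio scaling. *Fitm1*, the FIT gene of muscle, was listed at 0 in 4 libraries and at 0.0434 and 0.0213 TPM in the first K382Q and the second K382R library, which is less than 1 read length of sequence.

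The order of levels was the same in both mutants from *Plin2* through *Cidec*, *Plin1*, *Plin4* and *Fitm2*, with no overlap between neighbours in any group. Below these, *Plin5* was above *Plin3* in every K382Q library, and *Plin3* was above *Plin5* in every K382R library. *Cidea* followed in K382Q cells, and *Fitm1* was last in both.

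The scaling of the libraries moved several of these values. The median log2 fold change over the 15426 genes was -0.14 in TPM and 0.00 after median-ratio scaling, under which 40.3% of genes were called, 19.9% higher and 20.4% lower. Set against the TPM median, the differences were 0.09 for *Plin1*, 0.24 for *Plin2*, 0.04 for *Plin3*, 0.10 for *Plin4*, 1.19 for *Plin5*, 2.63 for *Cidea*, 0.41 for *Cidec* and 0.04 for *Fitm2*. The median of the 8 tested members was 0.03 in TPM and 0.19 after median-ratio scaling, and 6 of them were then called higher. *Plin5* kept its direction and call under the 3 scalings shown, and *Cidec* kept its direction. The sign of *Plin1*, *Plin2*, *Plin3*, *Plin4* and *Fitm2* depended on the scaling. *Cidea* kept its direction too, but it met the minimum for these fits only through the K382Q libraries, so its calls in them are not counted.

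**Figure D2:**
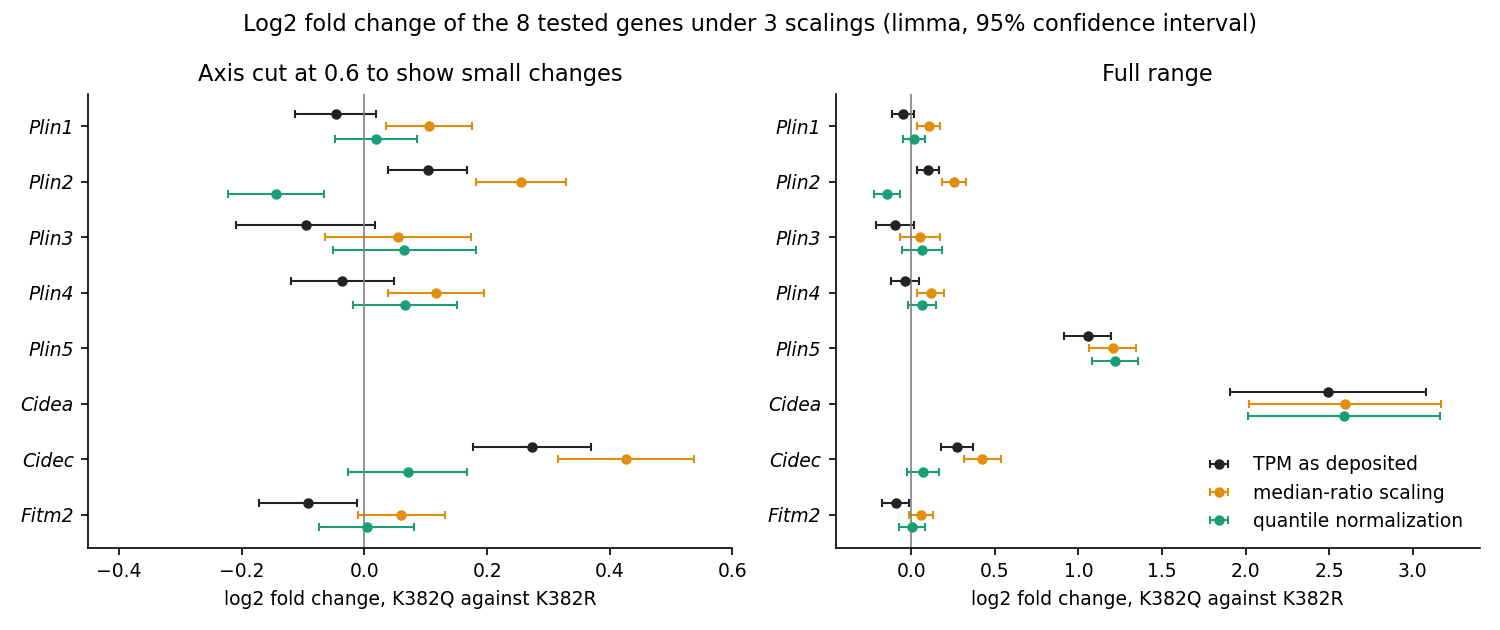
Log2 fold change (K382Q against K382R, x axis) of the 8 tested members from limma with TPM as deposited (black), median-ratio scaling (orange) and quantile normalization (green); bars are 95% confidence intervals and the axis of the left panel ends at 0.6. *Plin5* (1.06, 1.21 and 1.22) stays far from 0, while *Plin2* moves from 0.10 to 0.26 and -0.14. *Cidea* (2.49, 2.59 and 2.59) met the minimum for these fits only through the K382Q libraries.

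Shares and ratios within a library do not depend on a common scale factor, and they were compared with exact two-sided permutation tests, in which 3 against 3 libraries cannot reach a p below 0.1. Perilipin transcripts summed to 4070 ± 54.2 TPM in K382Q and 3844 ± 32.0 TPM in K382R cells. *Plin2* made up 80.69%, 80.58% and 81.1% of that sum in K382Q and 79.46%, 79.99% and 79.46% in K382R cells, whereas its share of the sum over all 10 members differed by -1.31 percentage points (K382Q minus K382R). The share of *Plin5* was 1.051%, 1.117% and 0.9877% in K382Q and 0.5102%, 0.5426% and 0.5329% in K382R cells, and so remained small in both. The mean shares of *Plin1* were 10.98% ± 0.126 in K382Q and 12.01% ± 0.169 in K382R cells, those of *Plin4* 6.49% ± 0.181 and 7.04% ± 0.156, and those of *Plin3* 0.692% ± 0.0315 and 0.783% ± 0.00349, with no overlap for any of these genes. Each of the 5 shares had an exact p of 0.1, the smallest possible, and 0.109 after adjustment over the 12 shares and ratios computed, so that none passed a threshold of 0.05.

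The ratio of *Plin5* to *Plin4*, the neighbouring gene, was higher in K382Q cells by 1.11 on the log2 scale (-2.63 ± 0.083 against -3.74 ± 0.073), and that of *Plin5* to *Plin1* by 1.12. Relative to *Plin1*, *Cidec* was higher by 0.32 and *Plin2* by 0.15, and relative to *Plin2*, *Cidec* was higher by 0.17, with all 3 K382Q libraries above all 3 K382R libraries in each case (exact permutation p = 0.1). The ratio of *Cidea* to *Cidec* was higher by 3.51, although it ranged from -14.0 to -11.2 among K382R libraries, and the difference was 2.69 without K382R replicate 1 and 4.12 without K382R replicate 2. *Fitm2* to *Plin1* overlapped between the mutants, with a difference of -0.05 (exact permutation p = 0.5). CIDE transcripts together were 2151 ± 107 against 1775 ± 42.0 TPM, nearly all of them from *Cidec*, and all 10 members together made up 0.64% of all TPM in K382Q and 0.581% in K382R cells.

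**Figure D3:**
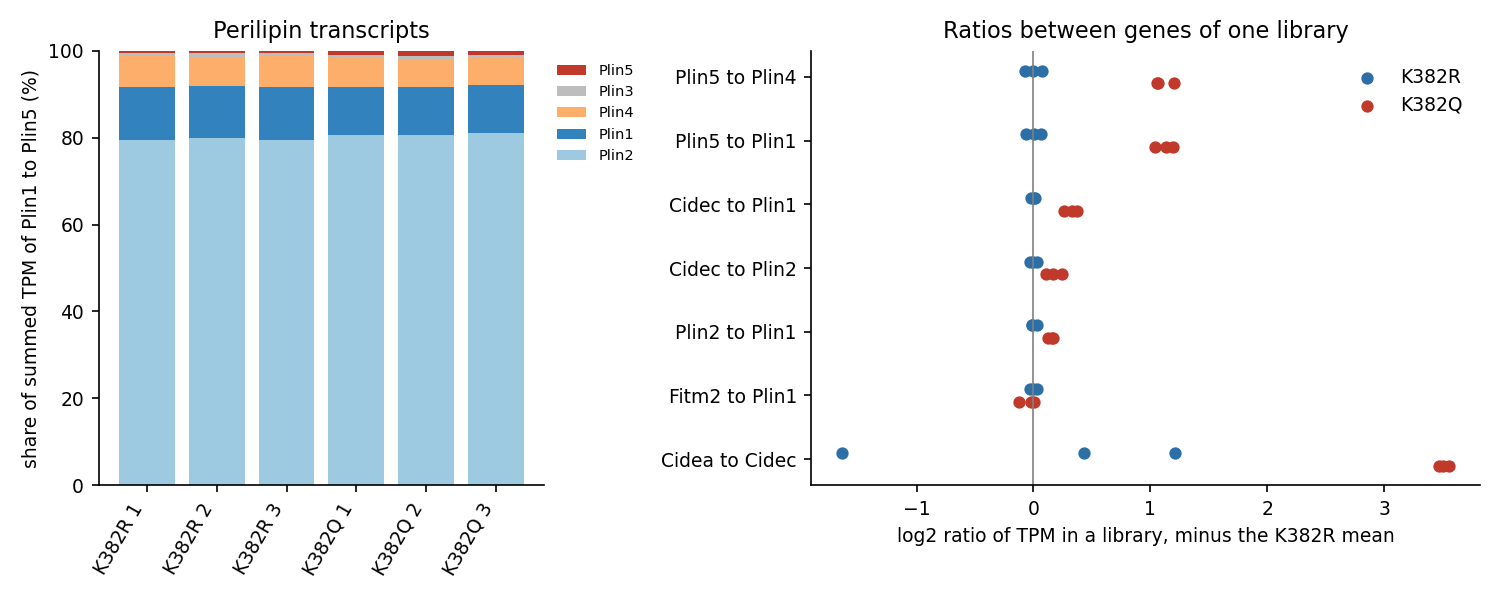
Left, share (%) of each perilipin gene in the summed TPM of *Plin1* to *Plin5*, 1 bar per library; right, log2 ratio of the TPM of a gene pair in each library minus the mean of the K382R libraries (blue K382R, red K382Q, 3 points each). *Plin2* holds 79.46% to 81.1% in all libraries, and the K382Q points lie apart from the K382R points in every ratio but *Fitm2* to *Plin1*.

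Transcripts of other droplet proteins changed in both directions. Of 57 further genes of droplet enzymes, lipases, tethers and biogenesis factors, 55 were in the tables, 52 were tested, 14 were higher in K382Q cells, 23 were lower and 15 did not pass, beside the 11.1% and 36.9% of all genes. The 14 include *Hsd17b13*, which met the minimum for the test only through the K382Q libraries, and with a minimum TPM of 1 the counts were 13 higher and 24 lower. The list's median log2 difference of -0.10 lay near that of all genes (-0.14). Among the listed genes with a mean TPM of at least 1, the largest rise was in *Hilpda*, a droplet protein that inhibits the lipase ATGL. It had 476.6, 463.1 and 439.9 TPM in K382Q and 156.4, 175.4 and 176.1 TPM in K382R cells (log2 fold change 1.44, SE 0.053, limma adjusted p = 1.26e-06). *G0s2*, another ATGL inhibitor, rose from 693.8 ± 23.0 to 1036 ± 49.6 TPM (0.58, adjusted p = 2.87e-05). *Acsl3* (acyl-CoA synthetase of nascent droplets), *Dhrs3* (retinaldehyde reductase) and *Sqle* (squalene epoxidase) rose by 0.60, 0.51 and 0.46 on the log2 scale. *Rnf213*, a ubiquitin ligase found on droplets and known as an interferon-inducible gene, was lower in K382Q cells, with 20.9 ± 0.678 against 50.0 ± 1.17 TPM (-1.24, adjusted p = 1.09e-06). *Dgat1*, which makes triacylglycerol, fell from 390.6 ± 5.03 to 290.7 ± 6.39 TPM (-0.43, adjusted p = 1.74e-05), and *Lpcat1*, *Ubxn4* and *Mettl7a1* had values of -0.71, -0.45 and -0.41. Among the lipases, *Pnpla2* (ATGL) was 668.2 ± 13.7 against 674.2 ± 13.3 TPM (-0.01, adjusted p = 0.746) and *Lipe* (hormone-sensitive lipase) 516.8 ± 16.9 against 548.7 ± 5.36 TPM (-0.09, adjusted p = 0.0521), while *Abhd5*, the ATGL co-activator bound by PLIN1, was lower (-0.18, adjusted p = 0.00259), which is -0.05 relative to the median of all genes. *Mgll* (monoacylglycerol lipase) was 308.4 ± 1.77 against 237.1 ± 9.12 TPM (0.38, adjusted p = 6.93e-05) and *Pnpla3* 7.32 ± 0.742 against 5.22 ± 0.788 TPM (0.46, adjusted p = 0.0165). These 5 genes were named after their values were seen. With median-ratio scaling the split of the 52 genes was 22 higher and 14 lower, beside 19.9% and 20.4% of all genes.

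Known PPAR targets outside the droplet coat were mostly higher. Of 24 listed genes 23 were tested, 17 were higher in K382Q cells, 3 were lower and 3 did not pass, with a median of 0.43, beside 11.1% higher and 36.9% lower among all genes. The list was chosen with earlier results of these data known, and it holds *Ucp1*, which the study had named as upregulated. Its counts are therefore a description and not an independent test. The 17 include *Ucp1* and *Ucp3*, which met the minimum for the test only through the K382Q libraries. With a minimum TPM of 1 the counts were 16 higher and 3 lower. The 16 still include *Ucp3*, which met that minimum too only through the K382Q libraries. With median-ratio scaling 19 of the listed targets were higher and 2 lower, beside 19.9% and 20.4% of all genes. With quantile normalization 17 were higher and 4 lower, beside 2954 and 3241 of all 15426 genes. The largest rise and falls given next are those among targets with a mean TPM of at least 1. The largest rise was in *Fabp3* (8.71 ± 1.82 against 1.13 ± 0.497 TPM, 2.52), a fatty acid carrier of heart and muscle. The largest falls were in *Adipoq*, the adipokine adiponectin (148.1 ± 1.20 against 360.0 ± 20.2 TPM, -1.28), and *Acsl1*, the acyl-CoA synthetase of fat (621.4 ± 19.2 against 860.7 ± 10.5 TPM, -0.47). *Pparg* itself, whose value includes reads of the transgene, was 1333, 1164 and 1104 TPM in K382Q and 1590, 1632 and 1612 TPM in K382R cells. It was lower in K382Q cells (-0.43, SE 0.064, limma adjusted p = 0.000977), with no overlap. The part of the *Pparg* level in the differences of the droplet coat genes was not tested.

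**Figure D4:**
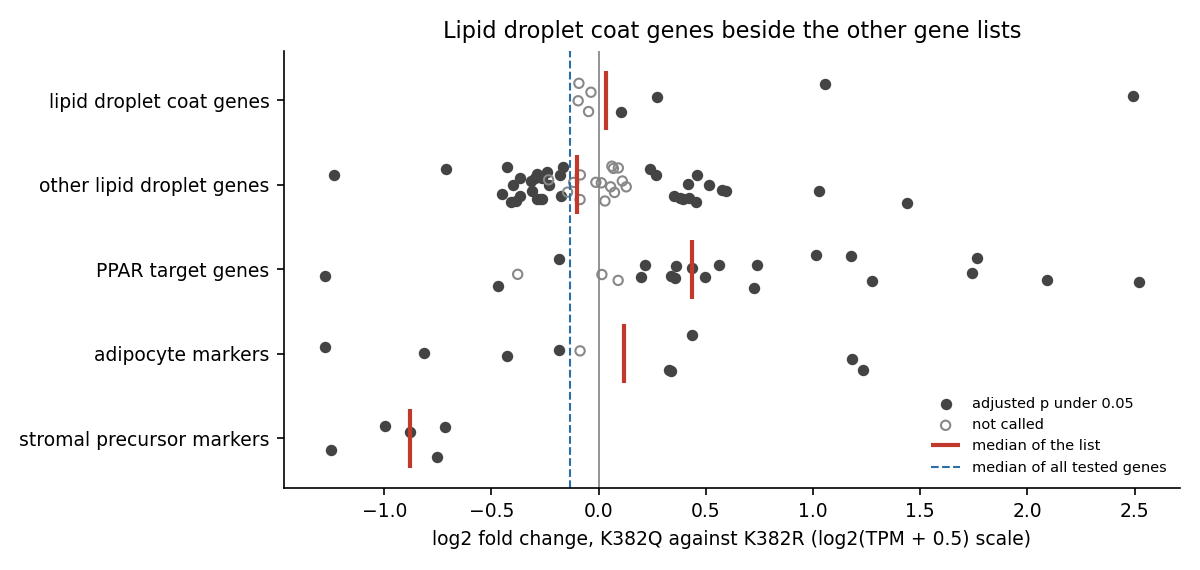
Log2 fold change (K382Q against K382R, limma on log2(TPM + 0.5)) of the tested genes of 5 lists, with 1 point per gene, filled at an adjusted p under 0.05 and jittered vertically. The red line is the list's median and the dashed line the median of all 15426 genes (-0.14): the droplet coat genes have a median of 0.03, the other droplet genes -0.10, the PPAR targets 0.43, the adipocyte markers 0.12 and the stromal precursor markers -0.88.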

How the data were processed

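According to the study's methods and the labels, reads were trimmed with TrimGalore, aligned to GRCm39 with HISAT2 and quantified with StringTie; the annotation release is not given in the sources used here. The authors deposited 1 gene table per library. Its coverage is a read depth per base, as deposited, without normalization. The deposited FPKM divides by the total of aligned bases, and the TPM that the authors deposited sums to the same total in every library. The most frequent ratio of coverage to FPKM among the genes of a library gave the depth. That ratio was not the same for every gene, so coverage is not compared between genes. The authors' own DESeq2 test used counts, which are not analysed here, so no counting intervals are given and the precision is that of 3 replicates.

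The mutants were compared in R 4.3.3 by limma 3.58.1 (values as log2(TPM + 0.5), variance with an intensity trend, Benjamini-Hochberg adjustment). The 15426 genes tested reached 0.5 TPM in 3 or more of the 6 libraries. In simulated libraries of the K382Q against K382R comparison (15135 genes tested), limma called 89.4% of the 104 genes changed by a log2 of 1. It called all 96 changed by 2, and 6 unchanged genes. The simulated log2 values were normal, the changed genes had a mean log2 level above 1, and no shift in library scale was added. In the data 48.1% of genes were called and the split between directions moved with the scaling. The simulated rates therefore do not give the error rate of the calls here. At most 0.0117% of values were identical between libraries. Of the gene IDs, 56.8% matched GENCODE mouse release 39 with their version, and that release gave transcript starts. Steps outside limma used Python 3.11.15, pandas 2.3.3, numpy 2.4.6, scipy 1.17.1 and matplotlib 3.10.9.

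The members and the lists were chosen with earlier results of these data known. Named genes are all members, *Pparg*, genes that overlap or adjoin a member, the 5 largest rises and falls of the droplet list (mean TPM of at least 1) and the 2 largest each way among PPAR targets. Cell type markers, *Ucp3* and 6 droplet genes picked after their values were seen (*Pnpla2*, *Lipe*, *Abhd5*, *Mgll*, *Pnpla3* and *Hsd17b13*) are named outside this rule. A few items named by it are not reported here. Other settings tried were pseudocounts of 0.1 and 1, no filter, a minimum TPM of 1, FPKM, median-ratio scaling, quantile normalization, no trend, a replicate block, each library left out and, for the shares, the sum over all members.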

Additional observations from a re-analysis of the deposited data

How the results depend on the processing

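*Plin5* (1.01 to 1.22) was called under all 15 alternatives, and *Cidec* under 14. *Cidea* ranged from 1.84 to 3.34. It met the minimum of the main fit only through the K382Q libraries, so its calls in filtered fits are not counted. With no filter on low values *Cidea* was 2.49 (limma adjusted p = 0.00212). The cause of the changes below was not tested. With FPKM, *Plin1* was 0.04 and *Plin4* 0.05. In that fit 151 genes were higher and 226 lower with a fold over 2, against 196 and 403 in TPM. The FPKM values are lower than the TPM values and fewer genes were tested (13419), so more than the unit changed. With median-ratio scaling, *Plin1* was 0.11, *Plin3* 0.05, *Plin4* 0.12 and *Fitm2* 0.06. With quantile normalization, *Plin1* was 0.02, *Plin2* -0.14, *Plin3* 0.07, *Plin4* 0.07, *Fitm2* 0.00 and *Cidec* 0.07 (adjusted p = 0.221), so that 2 members were called higher and 1 lower. Across all 15426 genes tested, that setting called 2954 higher and 3241 lower. *Plin2* was 0.10 with no filter on low values (adjusted p = 0.135) and 0.10 with no trend (adjusted p = 0.0657), each time without a call. As a share of all 10 members, *Plin2* differed by -1.31 and *Plin5* by 0.319 percentage points. A pseudocount of 0.1 gave 286 and 603 genes with a fold over 2, higher and lower, and a pseudocount of 1 gave 145 and 298, against 196 and 403. Leaving out 1 library gave 3 to 5 members called, 3 to 4 higher and 0 to 1 lower. The same fits called 6352 to 7026 of the 15097 to 15194 genes tested, 1404 to 1505 higher and 4893 to 5521 lower. In them *Plin2* was at 0.09 to 0.11, *Plin3* at -0.14 to -0.07 and *Fitm2* at -0.12 to -0.07. The member called lower was *Fitm2* without K382Q replicate 1 and *Plin3* without K382Q replicate 2. Where a mutant is left with 2 libraries, the spread is pooled with the other mutant.

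Same-numbered libraries did not deviate together (r = -0.018, 0.051 and 0.022), so the replicate numbers were not taken as pairs. With the replicate block, 6987 genes were called against 7415, and 4 members, with *Plin2* at 0.10 (adjusted p = 0.046), *Plin5* at 1.06, *Cidea* at 2.49 and *Cidec* at 0.27. Depth limits *Cidea* in K382R cells, *Cideb* and *Fitm1* most, where a level rests on a few reads.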

Other observations

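Among the further droplet genes, *Hsd17b13*, which codes for a hydroxysteroid dehydrogenase of liver droplets, was low, with a higher level in K382Q cells. It was picked after its values were seen, and its mean lies under the TPM of 1 asked of named genes. Its TPM was 0.8278, 1.147 and 0.9316 in K382Q and 0.234, 0.3834 and 0.06816 in K382R cells, without overlap (log2 fold change 1.03, SE 0.227). No K382R library reached the 0.5 TPM asked for the test, so that the gene entered it through the K382Q libraries alone and its p is not given.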
